A study of Mus musculus with 8 samples.

Results

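The MYC network is a set of basic helix-loop-helix leucine zipper transcription factors that share the partners MAX and MLX, and 10 of its genes (Myc, Mycl, Mycn, Max, Mxd1, Mxd4, Mnt, Mga, Mlx and Mlxip) were followed here. They were chosen by symbol from the 16341 genes of the count matrix, without a filter on expression but with earlier results of these data known. All 10 were found there, and 9 of them were among the 11717 genes with enough counts to be tested. The exception was Mycn. The related genes Mxd3, Mxi1 and Mlxipl are given beside them for completeness of the network but are not counted as members.

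RNA was sequenced from 4T1 cells sorted into fractions. The line is a mammary carcinoma that arose in a BALB/c mouse and spreads to the lung when grown in animals. The fraction called 4T1-Sca1+ carried SCA1 (encoded by Ly6a) on its surface, the fraction called 4T1-Sca1- did not, and each had 4 libraries. Both fractions came off magnetic columns after staining, and both are labelled as negative for CD45, the common leukocyte antigen. No other treatment, time point or genetic change is labelled for either fraction. The source label gives the parental line as origin while the protocol speaks of stained tumor, so that the groups are named only by the marker. It is not stated whether the replicates were separate sorts, and the p-values therefore measure the spread between these libraries, which may be technical.

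MYC, MYCL and MYCN bind DNA only as dimers with MAX and then activate transcription at E-boxes, whose best known form is CACGTG. The MXD proteins, MNT and MGA compete for MAX, occupy the same sites and recruit corepressors, and many cells raise MXD proteins as they stop dividing. MLX is a MAX-like partner used by MONDOA (encoded by Mlxip) and by CHREBP (encoded by Mlxipl), which sense glucose-derived metabolites and act at carbohydrate response elements.

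The promoters that hold an E-box are shown first because members of this network can lie under each other's control. Promoter windows, from 250 bases before to 50 bases after each gene's start, were taken from RefSeq on GRCm38.p6, and 9 of the 10 members had one. Of these, 4 held CACGTG, which is its own reverse complement and so needs no search of the other strand. The motif was found in 7.15% of all 32851 windows, and in 1174 of the 11740 windows of genes tested. The sequences run 5′ to 3′ on the gene's strand, with the E-box in capitals.
Max promoter, chr12:76962199-76962498, minus strand: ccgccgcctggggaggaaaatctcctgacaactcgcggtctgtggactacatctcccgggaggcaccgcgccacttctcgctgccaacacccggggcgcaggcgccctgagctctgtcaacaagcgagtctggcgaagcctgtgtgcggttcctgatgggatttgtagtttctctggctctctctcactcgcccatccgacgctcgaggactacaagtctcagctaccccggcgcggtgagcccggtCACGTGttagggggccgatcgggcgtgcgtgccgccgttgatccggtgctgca
Mlx promoter, chr11:101087040-101087339, plus strand: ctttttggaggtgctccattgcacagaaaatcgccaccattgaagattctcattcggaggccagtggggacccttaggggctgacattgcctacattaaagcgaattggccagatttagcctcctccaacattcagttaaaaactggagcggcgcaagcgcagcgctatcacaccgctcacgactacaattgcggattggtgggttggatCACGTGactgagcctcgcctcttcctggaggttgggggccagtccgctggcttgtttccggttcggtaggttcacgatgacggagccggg
Mnt promoter, chr11:74830674-74830973, plus strand: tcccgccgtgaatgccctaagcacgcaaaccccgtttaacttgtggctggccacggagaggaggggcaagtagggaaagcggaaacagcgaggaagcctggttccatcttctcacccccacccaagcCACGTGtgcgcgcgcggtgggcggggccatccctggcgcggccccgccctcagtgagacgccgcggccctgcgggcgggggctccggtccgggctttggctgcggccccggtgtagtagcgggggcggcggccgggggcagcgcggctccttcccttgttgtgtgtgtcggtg
Mxd4 promoter, chr5:34187661-34187960, minus strand: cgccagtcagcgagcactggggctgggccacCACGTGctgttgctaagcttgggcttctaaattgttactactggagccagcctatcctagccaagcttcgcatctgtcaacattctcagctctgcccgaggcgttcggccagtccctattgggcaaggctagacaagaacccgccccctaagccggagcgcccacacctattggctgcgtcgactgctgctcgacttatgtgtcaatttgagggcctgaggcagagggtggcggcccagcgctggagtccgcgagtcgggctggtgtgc
The E-box began 3 bases before the start of Max, 40 before that of Mlx, 123 before that of Mnt and 219 before that of Mxd4. Max encodes the shared partner, Mlx the partner of MONDOA, and Mnt and Mxd4 encode repressors that compete with MYC. A match describes these letters and does not show that a factor is bound there.

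Depth, the total count of a library, was 15041995 to 16968215 for 4T1-Sca1+ and 13561804 to 16142836 for 4T1-Sca1-. Values given for a gene are normalized counts, the deposited counts divided by 1 size factor per library. Ly6a, which checks the labels, averaged 167 ± 20.2 in 4T1-Sca1+ and 1.79 ± 1.73 in 4T1-Sca1- cells (SD, n = 4). Of all genes tested, 61.5% were called at an adjusted p under 0.05 by edgeR's quasi-likelihood test with Benjamini-Hochberg adjustment, 31.3% higher and 30.2% lower in 4T1-Sca1+ cells. Leukocyte markers were scarce in both fractions. Their summed normalized count was 162 to 178 in 4T1-Sca1+ and 74.5 to 112 in 4T1-Sca1- libraries, nearly all of it Cd74 and Csf1r, both called higher, while Ptprc (the gene of CD45) averaged 2.32 and 0.535 and Ly6g and Adgre1 were not among the genes counted. Fibroblast markers summed to 635 to 671 against 395 to 468, with 2 of 3 tested markers higher and Col1a2, a defining one, at fewer than 8 normalized counts in every library. Endothelial markers summed to 33.8 to 40.9 against 42.3 to 63.9, with the only tested one, Tie1, lower. Mammary epithelial keratins and Epcam were abundant in both, summing with Cdh1 to 54183 to 59104 and 53743 to 57955. Of these 7 epithelial markers, 2 (28.6%) were called higher and 3 (42.9%) lower, with log2 fold changes from -0.69 to 0.38. The part of the leukocyte, fibroblast, endothelial and epithelial markers in the results below was not tested. Fewer cells of a type and less RNA per cell cannot be told apart in such bulk libraries.

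Of the 9 members tested, 4 (Mxd1, Mxd4, Mnt and Mlxip) were called higher and 2 (Myc and Mycl) lower in 4T1-Sca1+ cells, and 3 (Max, Mga and Mlx) were not called. In percent this was 44.4 higher and 22.2 lower, near the background of 31.3 and 30.2 for so few genes, so the number of calls is no result about the network. Which members were called, and their size, is what follows. The median log2 fold change of the 9 tested members was 0.10 beside 0.01 over all genes tested, and -0.0035 with offsets corrected for the GC content of transcripts. For 6 members the fractions did not overlap (3 higher, 3 lower), where this held for 54.7% of all genes tested (26.8% higher, 27.9% lower).

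**Figure D1:**
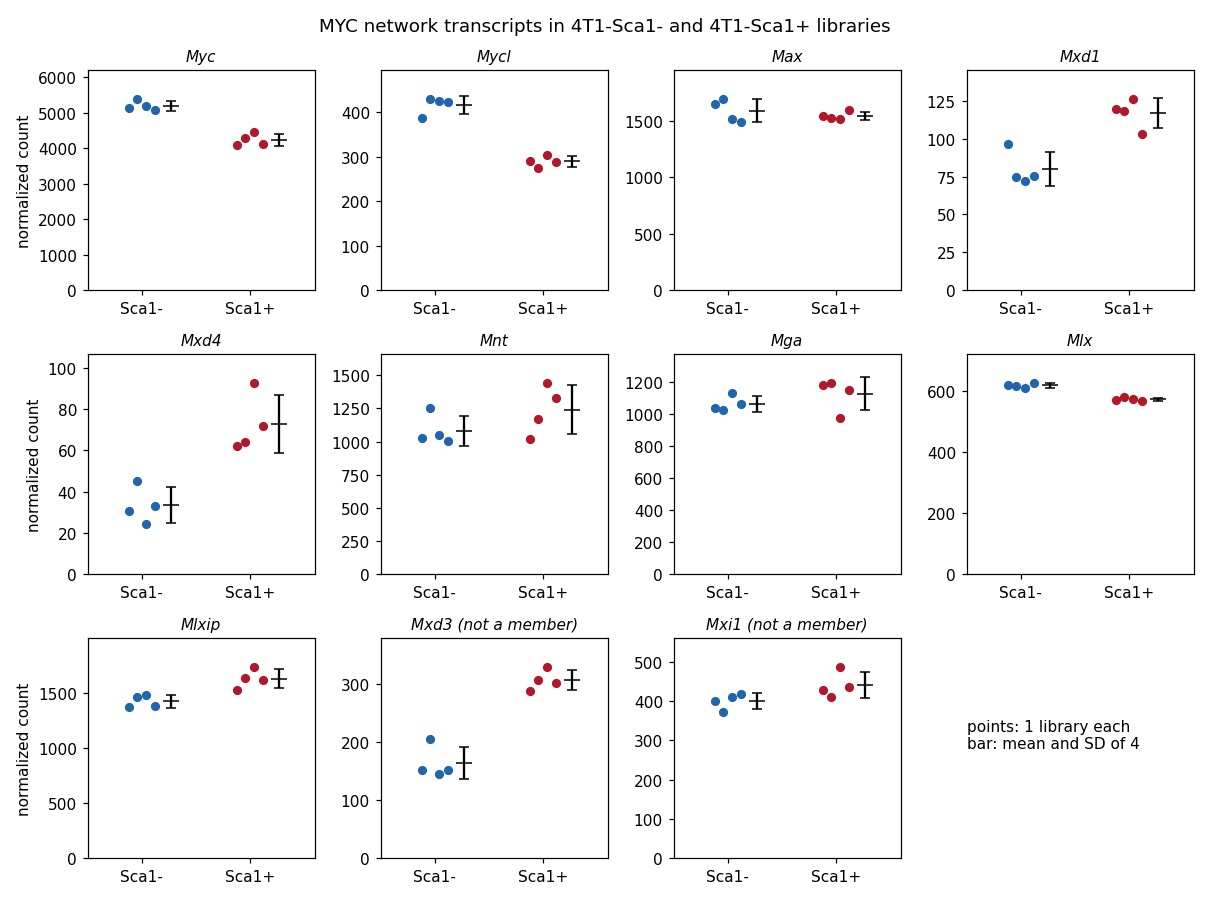
Normalized count (vertical axis, linear, from 0) of each tested member, Mxd3 and Mxi1 in the 8 libraries. Each point is 1 library, with 4T1-Sca1- in blue and 4T1-Sca1+ in red, and the bar gives the mean and SD of 4. The fractions separate completely for Myc, Mycl, Mxd1, Mxd4, Mlx, Mlxip and Mxd3 and overlap for Max, Mnt, Mga and Mxi1.

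Myc, the proto-oncogene that drives ribosome production and growth, was lower in 4T1-Sca1+ cells. Myc (ENSMUSG00000022346, GRCm38 chromosome 15, 61985391 to 61990374, plus strand) had 4099, 4283, 4456 and 4108 normalized counts in the 4T1-Sca1+ libraries and 5127, 5404, 5191 and 5076 in the 4T1-Sca1- libraries. Every 4T1-Sca1+ library lay under every 4T1-Sca1- library. The means were 4236 ± 169 and 5199 ± 144 (SD, n = 4), so that 4T1-Sca1+ cells had 81.5% of the level in 4T1-Sca1- cells. Its log2 fold change of -0.28 ± 0.04 (standard error, adjusted p = 2.1e-05, edgeR) stayed called in 19 of 19 alternative fits, with values from -0.34 to -0.24.

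Mycl, which encodes the MYC relative L-MYC, was lower in 4T1-Sca1+ cells as well. Mycl (ENSMUSG00000028654, chromosome 4, 122995652 to 123002485, plus strand) had 292, 275, 304 and 288 normalized counts in 4T1-Sca1+ libraries against 387, 431, 425 and 422 in 4T1-Sca1- libraries. The fractions did not overlap, and the means of 289.7 ± 11.97 and 416 ± 20.1 gave a log2 fold change of -0.51 ± 0.07 (adjusted p = 3.49e-06, edgeR). It was called in each of the 19 alternative fits. Mycn, the neural relative (ENSMUSG00000037169, chromosome 12, 12936093 to 12941914, minus strand), was barely counted, with 1 count in each of 4T1-Sca1+ replicates 2 and 3 and 0 in the other 6 libraries. No fold is given for it, since both fractions were under the floor of 3 counts per library.

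Max encodes the obligate partner and showed no difference past the spread. Max (ENSMUSG00000059436, chromosome 12, 76937269 to 76962201, minus strand) had 1540, 1526, 1514 and 1596 normalized counts in 4T1-Sca1+ libraries and 1652, 1698, 1513 and 1492 in 4T1-Sca1- libraries. The 4T1-Sca1+ values lay inside the range of the others. The log2 fold change was -0.03 ± 0.05 and its 95% interval ran from -0.13 to 0.07 (adjusted p = 0.639, edgeR), and its sign turned with the scaling, to 0.01 with library totals alone.

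Both MXD members, antagonists of MYC, rose. Mxd4 (MAD4) showed the largest change among the members. Mxd4 (ENSMUSG00000037235, chromosome 5, 34173883 to 34187720, minus strand) had 62.2, 64.1, 92.8 and 71.8 normalized counts in 4T1-Sca1+ libraries and 30.6, 45.2, 24.5 and 33.1 in 4T1-Sca1- libraries. The lowest 4T1-Sca1+ library was above the highest 4T1-Sca1- library. With means of 72.7 ± 14.01 and 33.3 ± 8.68 the log2 fold change was 1.13 ± 0.19 (adjusted p = 4.66e-05, edgeR). It kept its call in the 19 alternative fits, from 0.99 to 1.31, although counts this low make its size less precise than that of Myc. An antisense gene that was not among the genes counted, Gm42846, shares 514 exon bases with Mxd4.

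Mxd1 (MAD1), the MXD protein linked to terminal differentiation, was higher too. Mxd1 (ENSMUSG00000001156, chromosome 6, 86647042 to 86669161, minus strand) had 119.7, 118, 127 and 103 normalized counts in 4T1-Sca1+ libraries against 96.5, 74.95, 72.4 and 75.3 in 4T1-Sca1- libraries. The fractions did not overlap, although 4T1-Sca1- replicate 1 came close to the lowest 4T1-Sca1+ library. The log2 fold change was 0.55 ± 0.12 (adjusted p = 0.000646, edgeR), and 19 of 19 alternative fits called it.

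Mxd3 (MAD3), a relative that is made in S phase and is no member of the set, moved the same way with a smaller error. Its normalized counts were 289, 307, 330.2 and 302 in 4T1-Sca1+ libraries and 153, 205, 146 and 153 in 4T1-Sca1- libraries, a log2 fold change of 0.91 ± 0.10 (adjusted p = 3.5e-07, edgeR). Mxd3 shares 105 exon bases with Prelid1 on the opposite strand, and the library kit does not mark strand, so their reads cannot be told apart there. Prelid1 went the other way, with a log2 fold change of -0.33. Mxi1 (MXI1), the remaining MXD relative, had 440.2 ± 32.7 against 399.8 ± 20.3 normalized counts with overlap, a log2 fold change of 0.15 ± 0.07 (adjusted p = 0.0619, edgeR), and 5 of 19 alternative fits called it.

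Mnt encodes a widely expressed repressor that balances MYC for MAX, and its call was the least secure. Mnt (ENSMUSG00000000282, chromosome 11, 74830920 to 74845725, plus strand) had 1022, 1168, 1444 and 1329 normalized counts in 4T1-Sca1+ libraries and 1026, 1251, 1047 and 1001 in 4T1-Sca1- libraries. The fractions overlapped, with 4T1-Sca1+ replicates 3 and 4 above all others and 4T1-Sca1+ replicates 1 and 2 inside the 4T1-Sca1- range. The log2 fold change, 0.21 ± 0.09, barely passed the threshold (adjusted p = 0.0463, edgeR). Only 8 of 19 alternative fits called it. With offsets corrected for the GC content of transcripts the value was -0.0035 (adjusted p = 0.961), and the exons of Mnt had the highest GC content of the members, 59.5%. Leaving out 4T1-Sca1+ replicate 3 gave 0.13, replicate 4 gave 0.17, and leaving out 4T1-Sca1- replicate 1, 3 or 4 gave 0.17, 0.19 and 0.17, none of them called.

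Mga encodes a very large protein that pairs with MAX inside a Polycomb complex. Mga (ENSMUSG00000033943, chromosome 2, 119897228 to 119969581, plus strand) had 1185, 1197, 976 and 1153 normalized counts in 4T1-Sca1+ libraries and 1041, 1024, 1135 and 1063 in 4T1-Sca1- libraries. All but 4T1-Sca1+ replicate 3 lay above the 4T1-Sca1- range, and that replicate lay under it. The log2 fold change was 0.10 ± 0.06 with a 95% interval from -0.03 to 0.22 (adjusted p = 0.200, edgeR). It was called in 2 alternatives, at 0.16 without 4T1-Sca1+ replicate 3 and at 0.20 with GC-corrected offsets, and its exons had the lowest GC content of the members, 42.2%. Mnt and Mga thus exchanged places under that correction, which left 4 members called higher.

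On the MLX arm, the sensor rose while its partner did not pass the test. Mlxip (ENSMUSG00000038342, chromosome 5, 123394798 to 123457932, plus strand) had 1532, 1636, 1738 and 1616 normalized counts in 4T1-Sca1+ libraries against 1372, 1466, 1480 and 1379 in 4T1-Sca1- libraries. The fractions did not overlap, and the log2 fold change was 0.21 ± 0.05 (adjusted p = 0.00158, edgeR), called in each of the 19 alternative fits. Mlx (ENSMUSG00000017801, chromosome 11, 101087277 to 101092207, plus strand) had 573, 581, 576 and 569 against 622, 618, 611 and 629 normalized counts. Every 4T1-Sca1+ value was lower and the replicates lay very close together, but the log2 fold change of -0.10 ± 0.05 was not called (adjusted p = 0.114, edgeR) and no alternative fit called it. Mlxip shares 267 exon bases with the antisense gene Gm15747, which was not counted. Mlx shares 385 exon bases with Psmc3ip on the opposite strand, whose own log2 fold change was 0.10 and was not called. Mlxipl (CHREBP), a liver and fat factor, had 1 count over the 8 libraries.

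**Figure D2:**
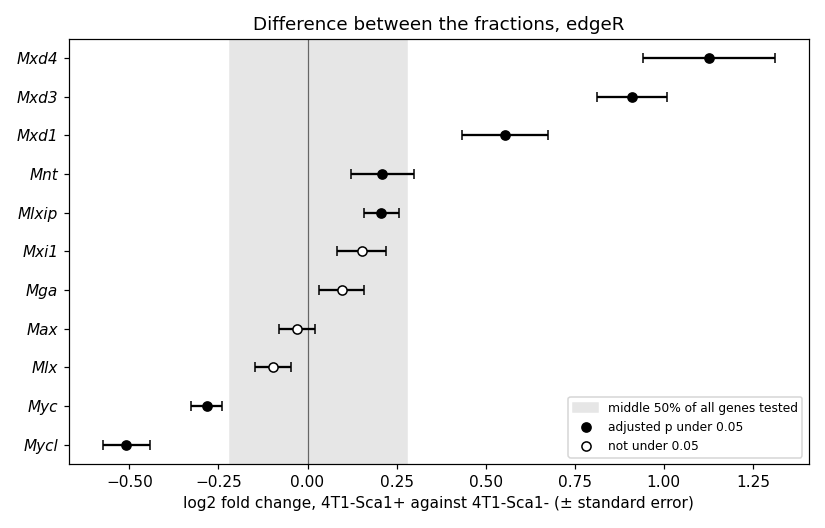
Log2 fold change of 4T1-Sca1+ against 4T1-Sca1- (horizontal axis, with standard error bars) for the tested members, Mxd3 and Mxi1, ordered by size. Filled points passed an adjusted p under 0.05 in edgeR, and the grey band is the middle 50% of all genes tested. Mxd4, Mxd3 and Mxd1 lie above the band, Mycl and Myc below it, and the others inside it.

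Levels were then compared between members per kilobase of exon, to limit the part of gene length in the order. The length counted all annotated exons of a gene. Where the expressed transcript is shorter than that, the level is understated, so the order and the ratios below also depend on annotation. Myc was highest in both fractions, at 1559 ± 62.1 normalized counts per kilobase in 4T1-Sca1+ and 1914 ± 53.0 in 4T1-Sca1- cells (SD, n = 4). Max followed at 429 and 442, then Mlx at 287 and 310.1, Mnt at 268 and 234 and Mlxip at 196 and 171. In 4T1-Sca1+ cells Mlx and Mnt had overlapping ranges, and so did Mga (73.5) with Mycl (71.7), and Mycl with Mxi1 (64.5). In 4T1-Sca1- cells the order changed below Mlxip. Mycl (103) stood above Mga (69.5) there, Mga overlapped Mxd3 (69.3), and in 4T1-Sca1+ cells Mxd3 (129.5) stood above both. Mxd1 (16.5 and 11.3) and Mxd4 (8.57 and 3.93) were the lowest in both apart from Mycn and Mlxipl.

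These levels give the makeup of the network in each library, as values without a test. The 10 members summed to 2910.3 ± 97.1 normalized counts per kilobase in 4T1-Sca1+ and 3258 ± 103 in 4T1-Sca1- cells. Myc held 53.6% ± 0.86 of that sum in 4T1-Sca1+ and 58.7% ± 0.34 in 4T1-Sca1- libraries, and the share of Mycl was 2.47% against 3.17%. The fractions did not overlap in either share. Mlxip held 6.72% against 5.25%, again without overlap. The summed level of Mxd1, Mxd4 and Mnt, most of which was Mnt, was 293 ± 41.5 against 249 ± 25.2, with overlap.

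The ratio of Myc to Max was 3.52, 3.72, 3.90 and 3.41 in the 4T1-Sca1+ libraries and 4.11, 4.21, 4.54 and 4.51 in the 4T1-Sca1- libraries. All of the former were lower. The ratio of Myc to Mxd1 was 94.6 ± 6.31 against 172 ± 23.1, that of Myc to Mxd4 186 ± 27.4 against 509 ± 120, and that of Myc to Mnt 5.90 ± 0.78 against 8.24 ± 0.59. None of the 3 overlapped between the fractions, and neither did Myc to Mxd3, at 12.05 ± 0.28 against 28.0 ± 3.52. For Mxd1, Mxd4 and Mxd3 this only restates the counts, since Myc was lower and each of them higher without overlap. Myc RNA thus exceeded that of each antagonist in every library, by a smaller factor in 4T1-Sca1+ cells. The ratio of Mlxip to Mlx was 0.68 ± 0.03 against 0.55 ± 0.03. Myc to Mycl was the other way round, at 21.8 ± 0.99 in 4T1-Sca1+ and 18.6 ± 0.81 in 4T1-Sca1- libraries.

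**Figure D3:**
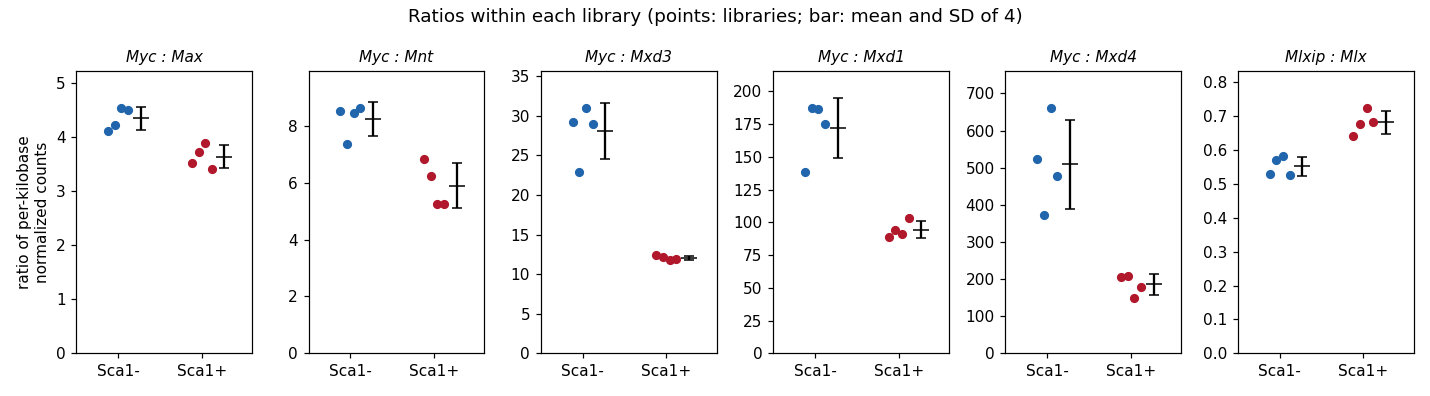
Ratio of per-kilobase normalized counts between network genes within each library (vertical axes, linear, from 0), with 4T1-Sca1- in blue and 4T1-Sca1+ in red. Points are libraries and the bar is the mean and SD of 4. The 4 ratios of Myc to an antagonist and the ratio to Max are lower in every 4T1-Sca1+ library, and the ratio of Mlxip to Mlx is higher.

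The genes most like Myc across the 8 libraries were Mrpl12, a mitochondrial ribosomal protein, 2900026A02Rik, and Rnf187, a ubiquitin ligase. They had the smallest root mean square distances of centred log2 CPM from Myc among 9617 genes, 0.0251, 0.0279 and 0.0280, where Mycl stood at 0.125. Their log2 fold changes were -0.27, -0.33 and -0.25, the last of which was -0.50 with GC-corrected offsets. This likeness describes their profile and says nothing of shared control.

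Genes that act on Myc itself were counted next. Of 19 genes that control transcription of Myc or its RNA, 6 (31.6%) were higher and 8 (42.1%) lower, with a median log2 fold change of -0.09. Over all genes tested the shares were 31.3% higher and 30.2% lower. In lists this short, counts near those shares are no result about the list. Notch1, a receptor whose cleaved form activates Myc, had the highest log2 fold change under the naming rule, 0.54 ± 0.07, followed by E2f1, a cell cycle activator, at 0.29 ± 0.05 (0.11 with GC-corrected offsets). Zfp36, which destabilizes short-lived mRNAs, was lowest at -0.56 ± 0.07 (1514 ± 136 normalized counts in 4T1-Sca1+ against 2258 ± 231 in 4T1-Sca1- libraries), and Igf2bp1, which protects Myc mRNA, followed at -0.38 ± 0.05. Adjusted p-values of these 4 genes ran up to 0.000166 (edgeR). Pvt1, the noncoding neighbour of Myc, had a log2 fold change of -0.09 and was not called.

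Of 18 genes for the stability of MYC protein, 4 (22.2%) were higher and 8 (44.4%) lower, beside 31.3% and 30.2% of all genes tested. Their median of -0.06 was not stable, at -0.014 without 4T1-Sca1- replicate 2, -0.091 without 4T1-Sca1- replicate 1 and -0.12 with GC-corrected offsets. The ubiquitin ligase genes Fbxo32 (0.52 ± 0.09) and Fbxl14 (0.39 ± 0.06), both reported to target MYC for degradation, had the highest log2 fold changes. Cip2a, which shields MYC from the phosphatase PP2A, had the lowest, -0.39 ± 0.08 (-0.26 with GC-corrected offsets). Genes of PP2A itself, Ppp2ca (-0.28 ± 0.06) and Ppp2r5a (-0.24 ± 0.06), were called lower as well. The called genes thus gave no common direction for MYC stability. Fbxw7, the best known MYC ubiquitin ligase, was not called, at 0.17 ± 0.08 (adjusted p = 0.0737, edgeR). Fbxw7, Ppp2ca and Ppp2r5a, like Pvt1, were singled out after their values were seen.

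Of 14 coactivators and partners, 2 (14.3%) were higher and 8 (57.1%) lower (median -0.13), beside 31.3% and 30.2% of all genes tested. Ccnt1, a subunit of the elongation factor P-TEFb, had 0.36 ± 0.06, and Ep300, a histone acetyltransferase, 0.17 ± 0.04. Kat5, the acetyltransferase TIP60, had -0.31 ± 0.05, and Ruvbl2, an ATPase of the TIP60 complex, -0.31 ± 0.05 (-0.47 with GC-corrected offsets). Of 12 corepressors that MXD proteins and MNT recruit, 1 (8.33%) was higher and 4 (33.3%) lower, against the same shares of all genes. Their median of 0.03 lay near 0 and ran from 0.0073 without 4T1-Sca1+ replicate 4 to 0.044 without 4T1-Sca1+ replicate 3. The scaffold Sin3a had 0.13 ± 0.05 (adjusted p = 0.0212, edgeR) and lost its call in 6 of the settings tried, among them the removal of 4T1-Sca1+ replicate 2 or 4 or of 4T1-Sca1- replicate 1 or 3. Sap18 (-0.28 ± 0.08) and Sap130 (-0.18 ± 0.05), both parts of the SIN3 complex, were lower.

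Of 11 genes of the Polycomb complex PRC1.6, which holds MGA, 3 were higher and 3 lower. Each was 27.3% of the list, near the 31.3% and 30.2% of all genes tested. The median was 0.01, with a sign that turned with the scaling and without 4T1-Sca1- replicate 3. Ehmt2, a histone methyltransferase, had 0.36 ± 0.06 and Yaf2, an adaptor, 0.33 ± 0.07. Pcgf6, which defines the complex, had -0.40 ± 0.07 and the ubiquitin ligase Rnf2 -0.24 ± 0.06. With GC-corrected offsets Ehmt2 was at 0.11 and Rnf2 at -0.11, both still called.

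**Figure D4:**
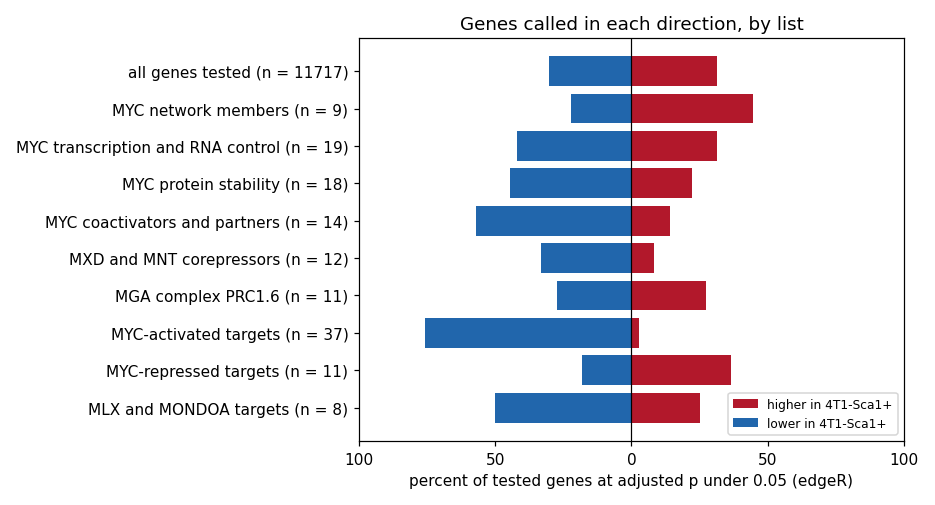
Percent of the tested genes of each list called lower (blue, to the left) or higher (red, to the right) in 4T1-Sca1+ libraries by edgeR (adjusted p under 0.05), beside all 11717 genes tested. The MYC-activated targets have the longest bar to the left, 75.7% against 30.2% for all genes, and nearly none to the right.

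Known targets of the network were read last. Of 37 genes that MYC is known to activate, all tested, 28 (75.7%) were lower and 1 (2.70%) was higher in 4T1-Sca1+ cells. Over all genes tested 30.2% were lower and 31.3% higher. The median log2 fold change was -0.32 beside 0.01 over all genes tested. For 29 of the 37 every 4T1-Sca1+ library lay under every 4T1-Sca1- library, where this held for 27.9% of all genes tested. Leaving out each library in turn moved the median from -0.33 to -0.30. The earlier results of these data already held lower MYC and ribosome biogenesis genes, so the count describes the same libraries and is no independent evidence.

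The ribosome biogenesis gene Rrp12 had the lowest log2 fold change, with 1790.5, 1719.8, 1548 and 1644 normalized counts in 4T1-Sca1+ libraries and 2942, 3283, 2996 and 3125 in 4T1-Sca1- libraries. The fractions were far apart, at -0.87 ± 0.05 (adjusted p = 2.63e-10, edgeR). Pa2g4, a growth regulator bound to ribosomes, had 7196, 7080.4, 6146 and 6973 against 11595, 11215, 11520.0 and 11644. None of these overlapped either, and the log2 fold change was -0.73 ± 0.05. The nucleolar genes Npm1 (-0.53) and Ncl (-0.47), the lactate dehydrogenase gene Ldha (-0.53) and the cyclin-dependent kinase gene Cdk4 (-0.17) were called lower too. These last 4 were singled out after their values were seen. The only one called higher was Tert, the catalytic subunit of telomerase, at 185.5 ± 11.99 against 123 ± 7.90 normalized counts (0.61 ± 0.09).

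**Figure D5:**
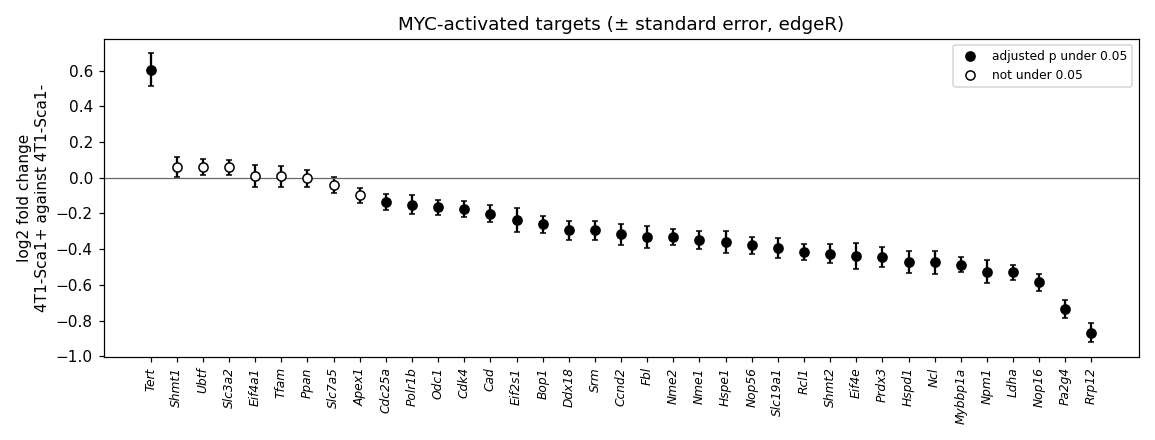
Log2 fold change of 4T1-Sca1+ against 4T1-Sca1- (vertical axis, with standard error bars) for the 37 MYC-activated targets, ordered from highest to lowest. Filled points passed an adjusted p under 0.05 in edgeR: Tert at 0.61 alone above 0, and 28 genes below it down to Rrp12 at -0.87.

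The promoters of Ldha and Cdk4 are shown as examples with several E-boxes, chosen after their values were seen. Apex1, Eif4e and Nme1 also had more than 1 match over their windows and are not shown. Any relation of the number of E-boxes to the size of a change was not tested. The 30 MYC-activated targets with a promoter window had 41 windows between them, since some genes had more than 1. Of these windows, 9 held CACGTG, and they belonged to 8 genes. Counted by window as well, 1174 of the 11740 windows of genes tested held it. The E-boxes are in capitals as above.
Ldha promoter, chr7:46845554-46845853, plus strand: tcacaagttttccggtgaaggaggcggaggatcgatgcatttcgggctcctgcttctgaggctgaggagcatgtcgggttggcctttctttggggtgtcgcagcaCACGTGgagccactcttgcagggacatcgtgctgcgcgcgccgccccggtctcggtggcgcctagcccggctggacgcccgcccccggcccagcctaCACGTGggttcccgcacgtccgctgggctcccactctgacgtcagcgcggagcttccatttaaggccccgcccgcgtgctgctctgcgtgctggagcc
Cdk4 promoter, chr10:127063285-127063584, plus strand: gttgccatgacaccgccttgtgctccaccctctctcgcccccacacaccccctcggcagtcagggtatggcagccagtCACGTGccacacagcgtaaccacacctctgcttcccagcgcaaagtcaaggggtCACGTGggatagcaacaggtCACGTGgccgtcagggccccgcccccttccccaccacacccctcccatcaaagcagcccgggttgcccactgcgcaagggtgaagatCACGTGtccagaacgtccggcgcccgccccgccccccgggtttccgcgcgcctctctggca
The window of Ldha held 2 E-boxes, 145 and 48 bases before the start, and Ldha had 24021 ± 1064 normalized counts in 4T1-Sca1+ and 34999 ± 850.1 in 4T1-Sca1- cells. The window of Cdk4 held 4, and Cdk4 had 8509 ± 347 against 9691 ± 327.

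Of 14 genes that MYC is known to repress, 11 were tested, 4 of them (36.4%) higher and 2 (18.2%) lower. Over all genes tested 31.3% were higher and 30.2% lower. The list median was 0.02, with a sign that turned when 4T1-Sca1+ replicate 3 was left out or GC content corrected. Cdkn1a, which encodes a cyclin-dependent kinase inhibitor, had 656, 718, 711 and 688 normalized counts in 4T1-Sca1+ libraries and 316, 346, 344 and 347 in 4T1-Sca1- libraries. Each 4T1-Sca1+ library was far above each 4T1-Sca1- library, at a log2 fold change of 1.05 ± 0.06 (adjusted p = 1.22e-10, edgeR). Hbp1, a repressor of cell cycle genes, had 0.55 ± 0.07. Ndrg2 had 54.6 ± 3.61 against 12.7 ± 2.11 normalized counts (2.12 ± 0.19). It was singled out after its value was seen, because it lies under the abundance set for naming. Klf6, a zinc finger factor induced by many stimuli, went the other way, with 2262 ± 146 against 6013 ± 449.6 normalized counts (-1.40 ± 0.06). Thbs1, the secreted matrix protein thrombospondin-1, was lower as well, at -0.47 ± 0.04. The repressed targets that were called went both ways.

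Of 9 genes that MLX and MONDOA are known to control, 8 were tested, 2 higher and 4 lower (median -0.06, or -0.11 after GC correction). The shares of all genes tested were 31.3% higher and 30.2% lower. In a list this short, such counts are no result about the list. Txnip, which encodes the glucose-responsive inhibitor of glucose uptake, is the best known of these MLX and MONDOA targets. It had 291, 342, 271 and 273 normalized counts in 4T1-Sca1+ libraries and 615, 689, 628 and 756 in 4T1-Sca1- libraries. The fractions were well apart, with a log2 fold change of -1.18 ± 0.08 (adjusted p = 1.67e-09, edgeR), while Mlxip itself was higher. Arrdc4, its paralog and likewise induced by MONDOA, had 30.4 ± 9.30 against 84.1 ± 8.65 normalized counts (-1.46 ± 0.18). Arrdc4 was below the abundance set for naming and was singled out after its value was seen. Hk2, the hexokinase of growing tumor cells, was higher at 0.39 ± 0.04, as was the pentose phosphate enzyme Tkt at 0.19 ± 0.04 (0.12 with GC-corrected offsets), and Klf10 was lower at -0.19 ± 0.05.

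The promoter of Txnip is shown for its carbohydrate response element, the MLX site. The element was searched as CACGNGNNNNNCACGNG or its reverse complement CNCGTGNNNNNCNCGTG, and was found in 16 of 32851 windows (0.0487%). It is in capitals.
Txnip promoter, chr3:96557707-96558006, plus strand: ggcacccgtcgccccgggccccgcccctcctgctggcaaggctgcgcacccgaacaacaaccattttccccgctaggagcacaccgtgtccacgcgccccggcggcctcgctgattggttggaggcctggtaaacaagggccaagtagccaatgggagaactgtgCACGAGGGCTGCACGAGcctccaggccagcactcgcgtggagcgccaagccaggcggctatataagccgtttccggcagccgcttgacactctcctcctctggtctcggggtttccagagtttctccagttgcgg
The element began 85 bases before the start. It was not found in the window of any network member.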

How the data were processed

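RNA-seq was performed on 4 libraries of 4T1-Sca1+ and 4 of 4T1-Sca1- cells. Libraries were made from total RNA with an Illumina TruSeq RNA v2 kit, which does not mark strand. The submitters' processing notes name cutadapt 1.16, STAR 2.5.3a and the GRCm38 (mm10) build. The counting tool and the annotation are not given in the sources used here. The authors deposited raw read counts per Ensembl gene for 16341 genes. They also deposited a normalized signal for 15372 genes, whose values equalled the counts over DESeq2 median-of-ratios size factors to a relative difference of at most 4.96e-15.

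Symbols, positions, exon lengths and GC content came from GENCODE M21 on GRCm38, in which 16202 of the counted gene IDs were found and 139 were not. The raw counts entered edgeR 4.0.16 (R 4.3.3), using filterByExpr, TMM scaling and the two-sided quasi-likelihood test without covariates. P-values were adjusted by Benjamini-Hochberg over 11717 tested genes, with calls at an adjusted p under 0.05. Depth was 13561804 to 16968215 counts per library, and floors cover counting error only, since reads copied by PCR were not collapsed to molecules. The fit was tested on simulated data.

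The members and lists were chosen with earlier results of these data known, and the lists were written from general knowledge. The rule for named genes took the network genes, the 2 highest and 2 lowest called genes of each list whose normalized count averaged 100 or more, the 3 genes most like Myc, and Ly6a, and 1 gene it takes is not reported here. Alternatives were DESeq2 size factors, upper-quartile scaling, library totals, GC-corrected offsets, DESeq2 1.42.0, a filter of 10 counts per library or none, limma 3.58.1 (voom, and log2 of the deposited normalized values plus 1 or 0.5), the replicate number as a block, a stricter adjusted p (0.01), a minimum log2 change of 1 in either direction, and leaving out each library. Protein sequences were not used here.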

Additional observations from a re-analysis of the deposited data

Results flagged for a closer look

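In 90 groups of 4 libraries, the library farthest from the others was set against Dixon's limit, which chance passes in about 1 of 20 groups, and 8 were past it. Among the network genes, Mxd1 had 96.5 normalized counts in 4T1-Sca1- replicate 1 where the other replicates had 72.4 to 75.3. Mxd3 had 205 in 4T1-Sca1- replicate 2 where the others had 146 to 153. Both genes were called higher in 4T1-Sca1+ cells with and without those libraries.

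Cip2a had 1318 normalized counts in 4T1-Sca1+ replicate 3 against 1639 to 1695 in the others. Cdkn1a had 316 in 4T1-Sca1- replicate 1 against 344 to 347. Thbs1 had 15568 in 4T1-Sca1+ replicate 1 against 14262 to 14459, and 20845 in 4T1-Sca1- replicate 2 against 20318 to 20368. Hk2 had 3061 in 4T1-Sca1- replicate 3 against 3196 to 3211, and Mrpl12 had 3132 in 4T1-Sca1+ replicate 3 against 3029 to 3041.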

How the results depend on the processing

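Of 45 single-gene log2 fold changes, 40 kept their direction and their side of the threshold under every alternative run for single genes, which did not include the minimum log2 change below, among them Myc, Mycl, Mxd1, Mxd4, Mlx, Mlxip and Mxd3. The exceptions were Max, Mnt, Mga, Mxi1 and Sin3a. Max turned to 0.00058 with upper-quartile scaling and 0.014 with library totals alone, and Mnt to -0.0035 with GC-corrected offsets. The median of the members turned to -0.0035 and that of the MYC-repressed targets to -0.10 with the same offsets. Without 4T1-Sca1+ replicate 3 the latter was -0.0034 (range over libraries left out -0.0034 to 0.037). The PRC1.6 median turned to -0.0071 with DESeq2 size factors and -0.0051 without 4T1-Sca1- replicate 3 (range -0.0051 to 0.042). The cause was not tested. A minimum log2 change of 1 in either direction left 612 genes higher and 103 lower, and 1 member higher (Mxd4) and 0 lower, so that Myc, Mycl, Mxd1 and Mlxip were not counted there. Leaving out libraries gave 3397 to 3642 genes higher and 3286 to 3548 lower, 3 to 4 members higher and 2 lower. Library totals alone gave 4118 higher and 2984 lower genes (58.0% of calls higher, against 50.9%) and moved the median of all genes to 0.05.

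Same-numbered libraries did not deviate together (correlations of 0.0957, -0.15, -0.0339 and -0.00107). These values cannot tell whether same-numbered libraries came from the same sort, which is not stated. With the replicate number as a block, 3605 genes were higher and 3452 lower, with 4 members higher and 2 lower. Mycn and Mlxipl had too few counts for a difference to be detected, and Mxd4 was the least precise of the tested members.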
